A study of Rattus norvegicus with 6 samples.

Results

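The family of miR-148b and miR-152 was followed through small RNA libraries of rat cardiac fibroblast exosomes and of rat cardiac fibroblasts. Its members were the 4 mature microRNAs listed under the names miR-148b and miR-152, which are rno-miR-148b-3p, rno-miR-148b-5p, rno-miR-152-3p and rno-miR-152-5p (rno stands for rat and is left off from here on), out of 728 listed in all. The family was chosen by name with the exosome and fibroblast counts of its members known, so the difference between the groups is given for them as a description and nothing is inferred from it. Exosomes are small membrane vesicles; 3 exosome libraries were available, numbered 1 and 2 and 1 whose column carried no number (the unnumbered exosome library). The cells gave 3 fibroblast libraries, numbered 1, 2 and 4. The cells were isolated enzymatically from hearts of Wistar rats on postnatal days 1 to 2 and grown with 10% serum. Exosomes came from medium that such cells had conditioned over 48 h in 1% exosome-free serum, by centrifugation, filtration and ultracentrifugation. No treatment or genetic change was given for either group. The labels do not say that libraries of a group came from separate cultures, so the spread between them may be technical. Nor do they say that the sequenced cells released the sequenced exosomes.

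The exosome libraries were far shallower than the fibroblast libraries, with 113129 to 120224 miRNA counts in exosomes and 2439559 to 12508651 counts in fibroblasts. A single miRNA, miR-873-3p, took 84.9% to 90.1% of the exosome counts and 0.391% to 2.37% of the fibroblast counts, which left 11825 to 18164 exosome counts for all other miRNAs. Levels are therefore given as counts per 1000000 (CPM) on 2 totals, 1 of all listed miRNAs and 1 that leaves miR-873-3p out. Mature miRNAs are of nearly equal length, so CPM values of different miRNAs were set side by side without a length correction. The 7 fibroblast and mesenchymal marker miRNAs, such as miR-143-3p and miR-21-5p, made up 0.177% to 1.36% of exosome counts and 51.7% to 53.0% of fibroblast counts. The 7 cardiomyocyte and muscle markers, such as miR-1-3p and miR-208a-3p, made up 0.00504% to 0.0133% of exosome counts and 0.00803% to 0.0201% of fibroblast counts. With miR-873-3p left out they made up 0.0507% to 0.0881% of exosome counts and 0.00823% to 0.0202% of fibroblast counts, so their direction depended on the total. The fibroblast and mesenchymal markers then stood at 1.17% to 13.7% in exosomes and 52.3% to 54.3% in fibroblasts. None of the listed markers had a summed count of 0 in either group.

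A miRNA is cut from a hairpin precursor as a duplex of a 5p and a 3p arm; 1 arm, the guide, is usually kept in the silencing complex and the other is mostly degraded. The guide finds its messenger RNAs mainly through its seed, bases 2 to 8 from the 5′ end. In the family the 3p arm is the usual guide. The family is best known for repressing the maintenance DNA methyltransferase DNMT1, and in human cells also the histocompatibility gene HLA-G. In the RefSeq annotation of the rat assembly GRCr8, the miR-148b hairpin lies within the span of Copz1 and the miR-152 hairpin within the span of Copz2. These are paralogous genes for a subunit of the COPI vesicle coat.

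The mature sequences show which arms can share targets and how closely the guides resemble each other. RefSeq sequences on GRCr8 were found for 3 of the 4 members; they are written 5′ to 3′ with the seed in capitals. miR-148b-3p lies at chr7:136299930-136299951 on the plus strand, and miR-152-3p and miR-152-5p lie at chr10:82329435-82329455 and chr10:82329397-82329419, both on the plus strand.
miR-148b-3p: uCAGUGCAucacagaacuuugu
miR-152-3p: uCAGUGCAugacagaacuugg
miR-152-5p: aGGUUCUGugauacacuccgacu
The 2 guides share the seed CAGUGCA and are identical at 19 of 21 positions counted from the 5′ end. The differences, miR-148b-3p given first, are C10G and U20G, both outside the seed, and miR-148b-3p is 1 base longer. The miR-152-5p arm has another seed, GGUUCUG. The third RefSeq miRNA with the seed CAGUGCA, miR-148a-3p, was not among the listed miRNAs and so was not analysed here. It is shown because it differs from miR-148b-3p at only 2 of 21 positions (U9C and C10U); it lies at chr4:81664447-81664467 on the minus strand.
miR-148a-3p: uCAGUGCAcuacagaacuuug
How the counting handled reads that fit more than 1 of these guides is not given in the sources used here. Values of the 3p arms are uncertain to that extent.

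In fibroblasts the family was led by 1 guide. miR-148b-3p was the 7th most abundant of the 728 miRNAs by mean CPM, with 159866, 241682 and 51189 counts in fibroblast libraries 1, 2 and 4. Its level was 25067, 19321 and 20983 CPM in these libraries, a mean of 21790.5 ± 2957 CPM (SD, n = 3). The second guide, miR-152-3p, had rank 76, with 5409, 9831 and 1394 counts or 848, 786 and 571 CPM. The passenger arm miR-152-5p had rank 139, with 1949, 3722 and 761 counts or 306, 298 and 312 CPM. The passenger arm miR-148b-5p had rank 403, with 398, 964 and 102 counts or 62.4, 77.1 and 41.8 CPM. The order of the 4 levels was the same in each fibroblast library, and the ranges of the 4 members did not overlap.

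The members kept unequal distances from each other across the fibroblast libraries. miR-148b-3p had 29.6, 24.6 and 36.7 times the counts of miR-152-3p in libraries 1, 2 and 4, so the 2 miRNAs with the same seed stood more than an order of magnitude apart in each. As a share of all miRNA counts the 4 members together made up 2.63%, 2.05% and 2.19% of these libraries, and miR-148b-3p alone gave 94.3% to 95.8% of the family counts. In CPM the coefficient of variation over the fibroblast libraries was 2.36% for miR-152-5p, 13.6% for miR-148b-3p, 19.7% for miR-152-3p and 29.3% for miR-148b-5p. That order depended on the scaling: in CPM scaled by the trimmed mean of M-values (TMM), which the tests used, the values were 43.5%, 46.0%, 37.0% and 24.8% in the same order of members.

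In exosomes the reads of the family were few. miR-148b-3p had 17, 19 and 85 counts in exosome libraries 1, 2 and unnumbered, or 141.4, 168 and 714 CPM. The unnumbered library was the high one, and its 95% Clopper-Pearson interval of 571 to 883 CPM lay above those of libraries 1 (82.4 to 226 CPM) and 2 (101.1 to 262 CPM). These intervals cover counting error only, since reads copied by PCR are not independent molecules. The fibroblast and mesenchymal markers were highest in the same library, at 1.36% of its counts, against 0.177% and 0.235% in exosome libraries 1 and 2; their part in the miR-148b-3p value was not tested. miR-152-3p, its seed partner, had 4, 0 and 2 counts in exosome libraries 1, 2 and unnumbered, or 33.3, 0 and 16.8 CPM. In TMM-scaled CPM the same libraries stood at 24.8, 0 and 38.9. Which library was highest thus depended on the scaling, and so few reads do not show whether miR-152-3p followed miR-148b-3p. The 0 in exosome library 2 allows up to 26.5 CPM. miR-152-5p had 12, 9 and 8 counts, or 99.8, 79.6 and 67.2 CPM. For miR-148b-5p no exosome library held a read (0 counts each), which allows up to 25.0, 26.5 and 25.2 CPM.

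**Figure D1:**
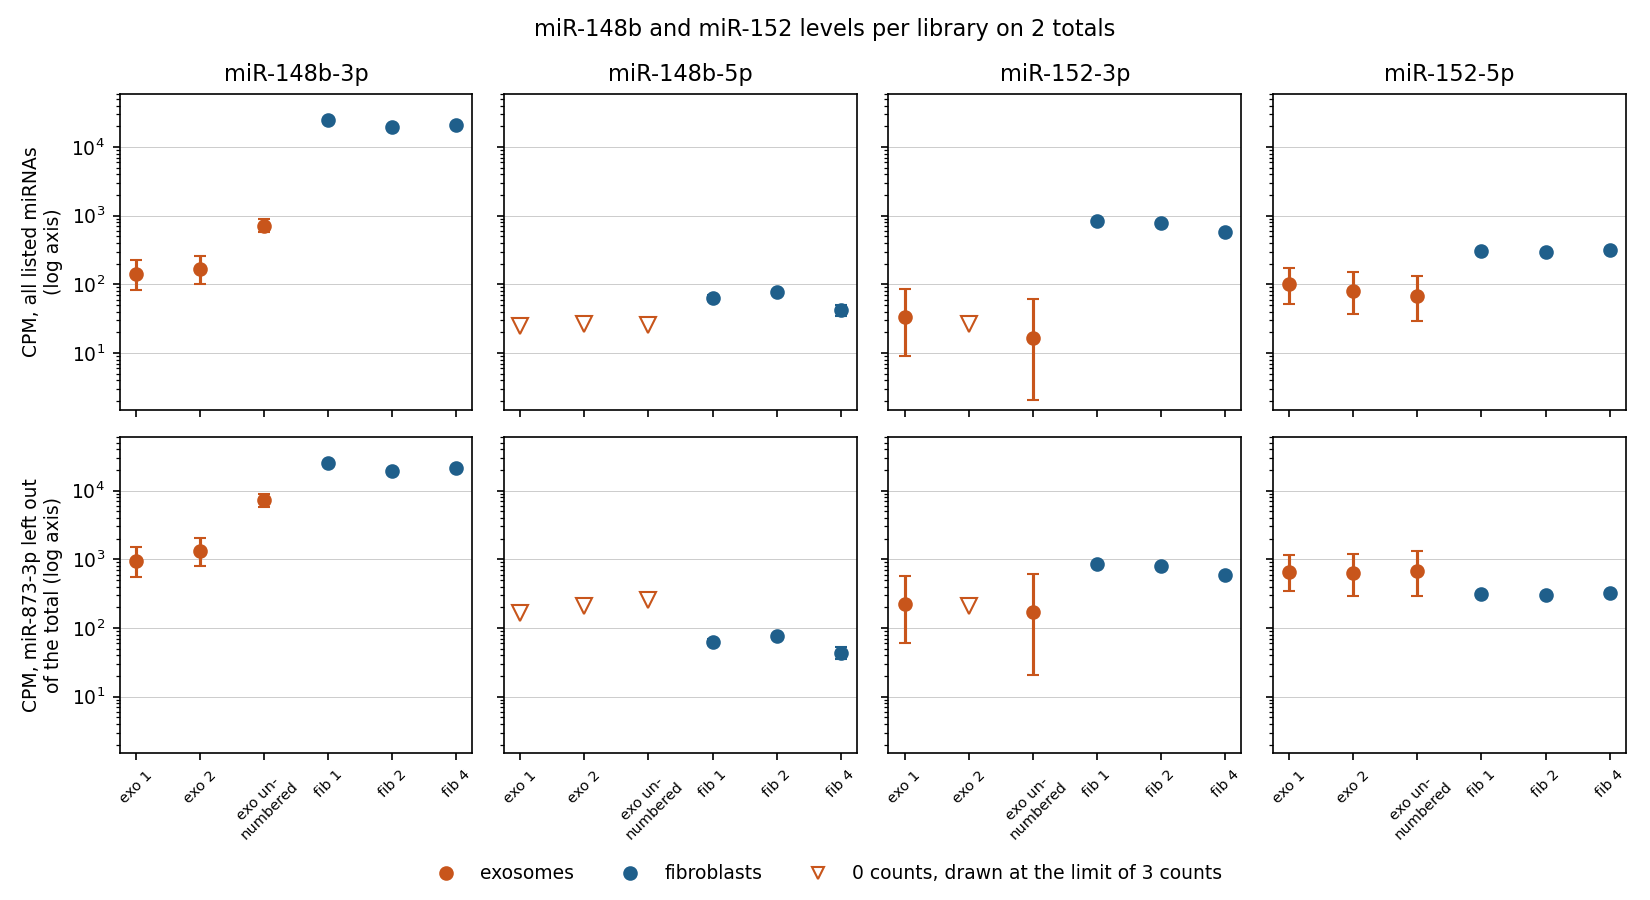
Levels of the 4 members in each library in CPM (log axes), on the total of all listed miRNAs (upper row) and with miR-873-3p left out of the total (lower row). Points are single libraries with 95% Clopper-Pearson intervals, and open triangles mark 0 counts drawn at the limit of 3 counts. The exosome points of miR-152-5p lie below the fibroblast points in the upper row (67.2 to 99.8 against 298 to 312 CPM) and above them in the lower row (628 to 677 against 299 to 320 CPM).

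Both guides were lower in exosomes on either total, and their groups did not overlap. In bulk libraries, fewer cells or vesicles that hold a miRNA and less of it in each cannot be told apart. With all listed miRNAs in the total, miR-148b-3p averaged 341 ± 323 CPM in exosomes and 21790.5 ± 2957 CPM in fibroblasts (SD, n = 3 each). Without miR-873-3p the averages were 3150 ± 3503 CPM in exosomes and 22092 ± 3039 CPM in fibroblasts, and the exosome libraries 1, 2 and unnumbered stood at 936, 1325 and 7188 CPM. Likewise, miR-152-3p averaged 16.7 ± 16.6 CPM in exosomes and 735 ± 145.2 CPM in fibroblasts on the full total. Once miR-873-3p is left out it averaged 130 ± 115 CPM in exosomes and 744 ± 142.2 CPM in fibroblasts. On that total its counting interval in the unnumbered exosome library (2 reads) was 20.5 to 611 CPM. This interval reached above fibroblast library 4, at 585 CPM, so that single value is not separated from it. Lower in exosomes with no overlap between the groups were 24.1% of all tested miRNAs on the full total and 7.32% on the total that leaves miR-873-3p out.

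The passenger arm miR-152-5p changed its direction with the total. With all listed miRNAs in the total it averaged 82.2 ± 16.5 CPM in exosomes and 305 ± 7.21 CPM in fibroblasts (SD, n = 3 each), with no overlap, where 24.1% of all tested miRNAs were lower and 6.02% higher with no overlap. Without miR-873-3p it averaged 655 ± 24.9 CPM in exosomes and 309 ± 10.4 CPM in fibroblasts, again with no overlap but now higher in exosomes. The counting intervals of exosome libraries 2 and unnumbered reached down to 287 and 292 CPM, so each of these single values is not separated from the fibroblast level. On that total 50.2% of all tested miRNAs were higher in exosomes with no overlap, so the second direction was shared by many miRNAs. The direction of miR-152-5p is therefore not fixed by these data.

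For miR-148b-5p the exosome depth set the limit. At its mean fibroblast share, 7.26, 6.84 and 7.19 reads would stand in exosome libraries 1, 2 and unnumbered on the full total, but only 1.11, 0.877 and 0.723 reads without miR-873-3p. The sum of 2.71 expected reads on the second total is below the 3 counts that a count of 0 allows, so a lower level was not detectable there. The same reckoning without miR-873-3p gave 979 reads for miR-148b-3p, of which 121 were found, and 33.0 reads for miR-152-3p, of which 6 were found. For miR-152-5p it gave 13.7 reads, and 29 were found.

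Across all miRNAs the groups were compared with edgeR's quasi-likelihood test on the raw counts, with TMM scaling, and a miRNA is called lower or higher at a Benjamini-Hochberg adjusted p under 0.05. Called lower in exosomes were 18.6% of the 698 miRNAs tested, and 3 of the 4 members were among them; since the members were chosen with this contrast known, nothing is read from that count. Among the 100 most abundant fibroblast miRNAs, 77 were called lower. Both family guides belong to these 100. In TMM-scaled CPM, 24.6% of the tested miRNAs were lower in exosomes and 14.8% higher with no overlap between the groups; miR-152-5p was the member whose groups overlapped. All 4 members passed the count filter, miR-148b-5p through its fibroblast reads alone. The median log2 fold change (exosomes over fibroblasts) was -3.69 over the 4 members with miR-148b-5p at its bound, -5.12 with its fitted value, and -0.15 over all tested miRNAs.

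In the main fit the changes of the 2 guides were close to each other. miR-148b-3p averaged 636 TMM-scaled CPM in exosomes and 20696 in fibroblasts, a log2 fold change of -5.05 (SE 1.49) or 33.2-fold lower. miR-152-3p averaged 21.2 TMM-scaled CPM in exosomes and 664 in fibroblasts, a log2 fold change of -5.18 (SE 0.91) or 36.3-fold lower, a value that rests on 6 exosome reads. Without the unnumbered exosome library the log2 fold change of miR-148b-3p was -7.45 (SE 1.47), against -5.74 (SE 1.11) for miR-152-3p. Without exosome library 1 miR-148b-3p stood at -4.57 (SE 1.83), where it was no longer called. miR-152-3p stayed between -5.80 and -4.76 when any 1 library was left out. With library sizes that leave out miR-873-3p and no further scaling, miR-148b-3p stood at -2.82 (SE 0.79) and miR-152-3p at -2.49 (SE 0.90), both still called lower.

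The 2 passenger arms were bounded less well. miR-152-5p averaged 100.2 TMM-scaled CPM in exosomes and 286 in fibroblasts, with overlapping groups (70.5 to 156 against 150 to 394), a log2 fold change of -1.61 (SE 0.67), and was the member not called. The log2 fold change was 1.08 (SE 0.77) with library sizes that leave out miR-873-3p and no further scaling. On that scale the median of all tested miRNAs was 2.37, so that miR-152-5p still lay 1.29 below it (-1.29), near its distance of -1.45 from the median under TMM. Over the 16 settings run, miR-152-5p stayed between -1.90 and -1.10 relative to the median of all tested miRNAs, miR-152-3p between -5.54 and -4.36 and miR-148b-3p between -7.26 and -4.21. miR-148b-5p was at least 5.04-fold lower, with the exosomes set at a group-wide floor of 3 counts (8.81 TMM-scaled CPM) against 44.4 TMM-scaled CPM over the fibroblast group. No fold is given for it without miR-873-3p in the total, where that floor is 67.7 CPM and the fibroblast level 69.3 CPM.

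**Figure D2:**
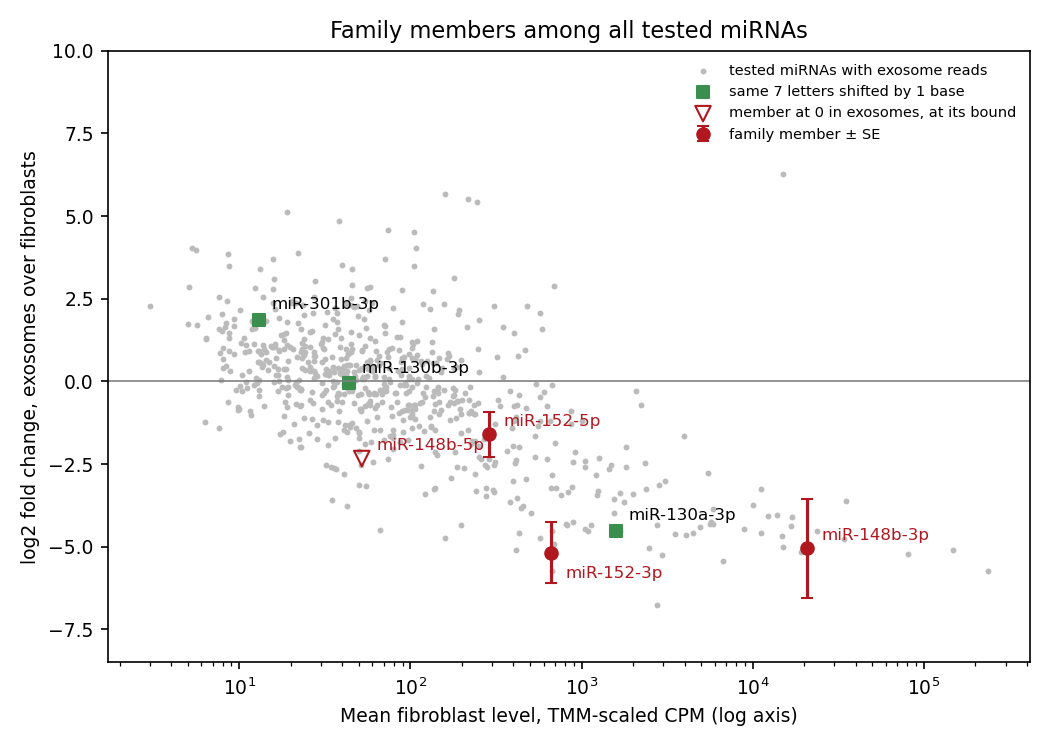
The log2 fold change of each tested miRNA that had exosome reads (exosomes over fibroblasts, TMM scaling) against its mean fibroblast level in TMM-scaled CPM (log axis). Members are red with SE bars (miR-148b-5p as a triangle at its bound), and green squares are miRNAs that carry the same 7 letters shifted by 1 base; miR-148b-3p at -5.05 and miR-152-3p at -5.18 lie with other abundant fibroblast miRNAs below 0.

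**Figure D3:**
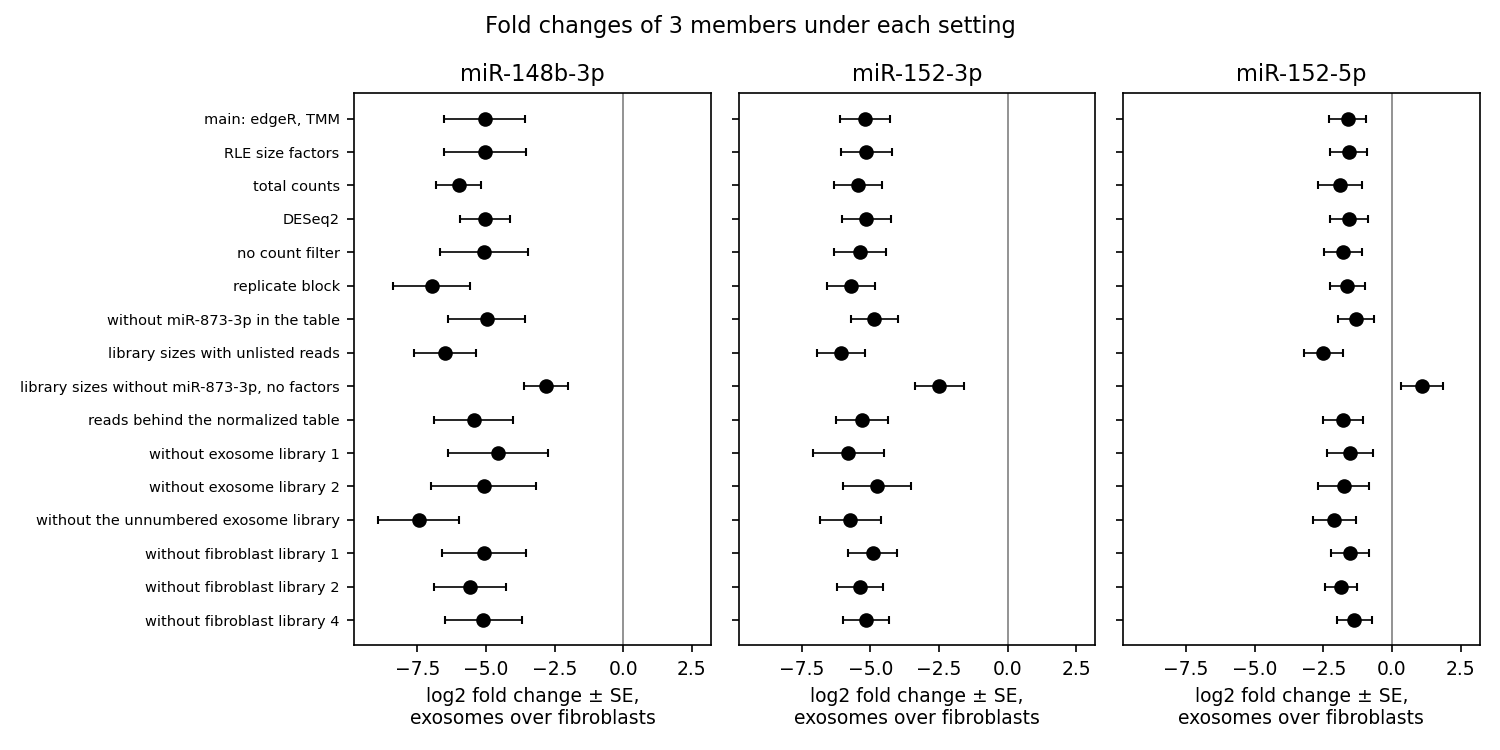
The log2 fold changes (exosomes over fibroblasts, bars are SE) of miR-148b-3p, miR-152-3p and miR-152-5p under the main fit and each other setting. Both guides lie below 0 in each setting, while miR-152-5p lies at 1.08 with library sizes that leave out miR-873-3p and no factors, and below 0 in the others, at -1.31 where miR-873-3p is out of the table and TMM is kept.

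The authors' deposited table, which divides fibroblasts by exosomes and so runs the other way, gave similar sizes. In the authors' deposited table the mean normalized count of miR-148b-3p was 536 in exosomes and 17262 in fibroblasts, a fibroblast over exosome ratio of 32.2. For miR-152-3p the authors' deposited table gave 17.9 in exosomes and 552 in fibroblasts (ratio 30.8), and for miR-152-5p it gave 84.8 in exosomes and 237 in fibroblasts (ratio 2.80). It listed miR-148b-5p at 0 in exosomes and 42.8 in fibroblasts. The whole reads behind the normalized values equalled the raw exosome counts for each of the 4 members. In fibroblasts they were equal or slightly lower, as for miR-152-5p in library 2 (3693 reads against 3722 raw counts).

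The arms of 1 hairpin share a precursor, so their ratio within a library needs no scaling between libraries. The miR-152 hairpin gave mostly 5p reads in exosomes and mostly 3p reads in fibroblasts. Its 3p share was 25.0% (4 of 16 reads, 95% Clopper-Pearson interval 7.27 to 52.4), 0% (0 of 9 reads, which allows a share of up to 33.3%) and 20% (2 of 10 reads, 2.52 to 55.6) in exosome libraries 1, 2 and unnumbered. In fibroblast libraries 1, 2 and 4 it was 73.5%, 72.5% and 64.7%. The groups did not overlap, at 15% ± 13.2 in exosomes and 70.2% ± 4.84 in fibroblasts (SD, n = 3 each). Summed over the exosome libraries 6 of 35 reads came from the 3p arm, or 17.1% (6.56 to 33.6). Summed over the fibroblast libraries it was 72.1%.

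A shift between arms was not peculiar to miR-152. Of the 168 hairpins with at least 5 reads in every library, 19.6% had a lower 3p share in exosomes with no overlap between groups and 21.4% a higher one. A 3p majority in every fibroblast library together with a 5p majority in every exosome library was found in 3.57% of them. These were 6 hairpins, chosen after their values were seen: miR-152, miR-23a, miR-320, miR-328a, miR-330 and miR-382. The miR-152 reads were among the fewest of these, with 9 reads in the shallowest library, against 56 for miR-320 and 35 for miR-23a.

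The miR-148b hairpin showed no such shift. All 121 exosome reads came from its 3p arm (17, 19 and 85 in libraries 1, 2 and unnumbered), which allows a 5p share of up to 2.48%. In fibroblast libraries 1, 2 and 4 the 3p share was 99.8%, 99.6% and 99.8%, so a difference was not detectable at the exosome depth. Of the 265 hairpins with both arms listed, 2 had a higher mean 3p share in fibroblasts than miR-148b, and 81 had a higher one than miR-152. In fibroblast counts the 3p arm of miR-148b stood at 251 to 502 times its 5p arm, and that of miR-152 at 1.83 to 2.78 times.

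The balance of the 2 guides overlapped between the groups. miR-152-3p made up 19.0% (4 of 21 reads, 5.45 to 41.9), 0% (0 of 19 reads, which allows up to 15.8%) and 2.30% (2 of 87 reads, 0.280 to 8.06) of the reads of both guides in exosome libraries 1, 2 and unnumbered. In fibroblast libraries 1, 2 and 4 it made up 3.27%, 3.91% and 2.65%. The means were 7.12% ± 10.4 in exosomes and 3.28% ± 0.629 in fibroblasts (SD, n = 3 each). The high exosome value came from library 1 alone, whose lower bound of 5.45% lay above the fibroblast shares. Summed over the exosome libraries the share was 6 of 127 reads, or 4.72% (1.75 to 10.0), an interval that covers the fibroblast shares.

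**Figure D4:**
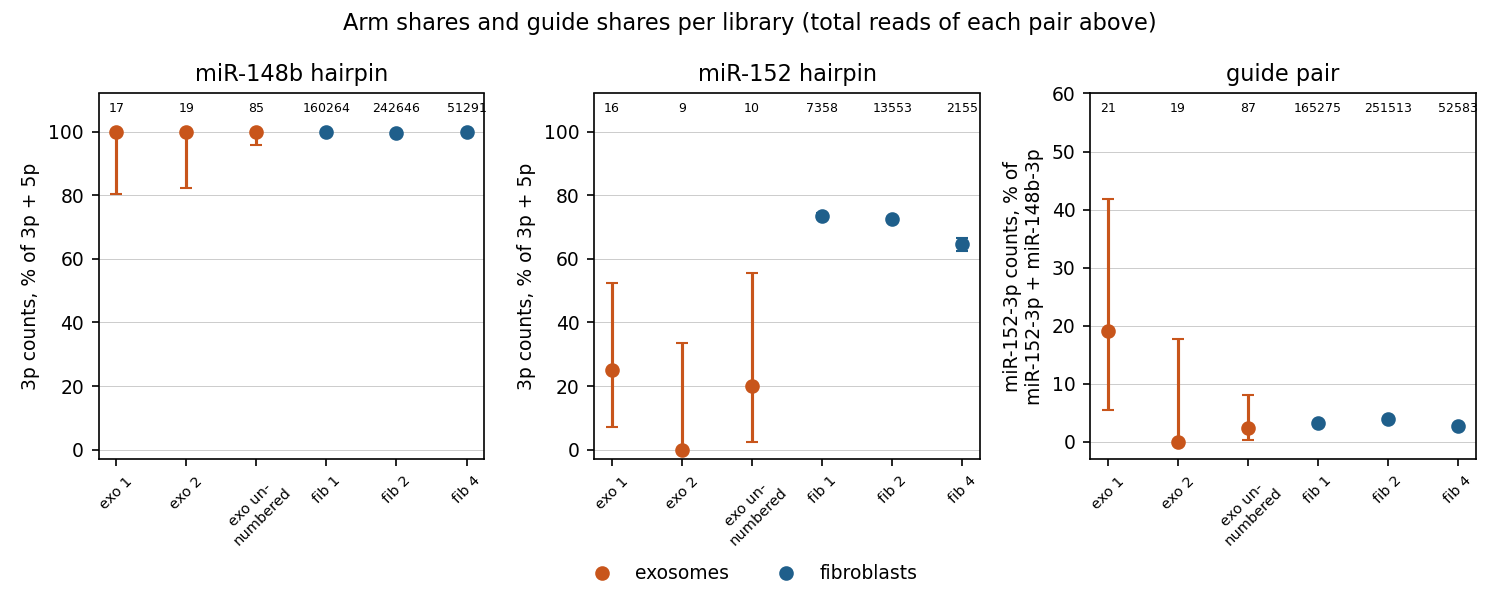
The share of 3p reads of the miR-148b hairpin and of the miR-152 hairpin, and the share of miR-152-3p among the reads of both guides, in percent per library with 95% Clopper-Pearson intervals; the reads behind each share are printed above it. The miR-152 hairpin stands at 0% to 25.0% in exosomes and at 64.7% to 73.5% in fibroblasts. The points of miR-148b lie above 99% in all 6 libraries, but its intervals reach down to 80.5%, 82.4% and 95.8% in exosome libraries 1, 2 and unnumbered.

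The composition of the family counts moved with these ratios. The 4 members together made up 0.0274%, 0.0248% and 0.0798% of the counts of exosome libraries 1, 2 and unnumbered, or 0.182%, 0.195% and 0.803% once miR-873-3p is left out. The fibroblast share was 2.63%, 2.05% and 2.19% on the full total. Of the family counts miR-152-5p took 36.4%, 32.1% and 8.42% in these exosome libraries, against 1.16%, 1.45% and 1.42% in the fibroblasts (libraries 1, 2 and 4). miR-148b-3p took 51.5%, 67.9% and 89.5% in the exosome libraries, against 95.4%, 94.3% and 95.8% in the fibroblast libraries.

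The family's 7 seed letters also occur 1 base earlier, at bases 1 to 7, in miRNAs of the miR-130 and miR-301 family, whose own seed is AGUGCAA. The 3 found by this match are shown with the shared letters in capitals, because their target letters overlap those of the family seed. Only the 655 listed miRNAs with a RefSeq sequence could be matched, so other listed miRNAs may hold these letters too. Among the listed miRNAs without such a sequence was miR-301a-3p, which the 3 therefore leave out. It was called lower in the main test (log2 fold change -4.53, SE 0.91). On GRCr8 miR-130a-3p lies at chr3:90229240-90229261 on the minus strand. miR-130b-3p lies at chr11:97384430-97384451 and miR-301b-3p at chr11:97384077-97384099, both on the plus strand.
miR-130a-3p: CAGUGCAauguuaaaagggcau
miR-130b-3p: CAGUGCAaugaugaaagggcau
miR-301b-3p: CAGUGCAaugguauugucaaagc
The calls of these 3 miRNAs were not alike. miR-130a-3p, known for repressing the adipogenic factor PPARG, had 5, 6 and 8 counts in exosome libraries 1, 2 and unnumbered, against 14751, 14951 and 3427 counts in the fibroblasts (libraries 1, 2 and 4). Its log2 fold change was -4.51 (SE 0.96), and it was called lower (edgeR adjusted p = 5.1e-05). miR-130b-3p had 5, 6 and 3 counts in exosomes and 413, 1172 and 35 in fibroblasts, with a log2 fold change of -0.05 (SE 0.69). miR-301b-3p had 4, 7 and 4 counts in exosomes and 46, 520 and 21 in fibroblasts, with a log2 fold change of 1.86 (SE 0.81). In the main test the last 2 were not called, so 1 of the 3 matched miRNAs was lower and 0 higher. Of all tested miRNAs 18.6% were lower and 11.3% higher. miR-301b-3p was called higher with size factors by relative log expression (RLE; log2 1.96), with DESeq2 (log2 1.97) and with miR-873-3p taken out of the table under TMM (log2 2.19). With library sizes that leave out miR-873-3p and no further scaling, both miR-130b-3p and miR-301b-3p were called higher (log2 2.44 and 4.15). The fibroblast ranks of the 3 were 49, 419 and 628.

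Other miRNAs known to repress enzymes of DNA methylation or of histone modification were listed beside the family: 15 miRNAs, of which 14 passed the filter. Called lower in exosomes were 7, called higher was 1 and not called were 6, with a median log2 fold change of -2.73. Over all tested miRNAs 18.6% were lower and 11.3% higher with a median of -0.15, and 77 of the 100 most abundant in fibroblasts were lower. miR-29a-3p, which represses the de novo methyltransferases DNMT3A and DNMT3B, was lower (log2 -4.52, SE 0.97). In the same list miR-29b-3p (log2 -1.94, SE 1.02) and miR-29c-3p (log2 -2.09, SE 0.89) were not called in the main test. miR-101a-3p (log2 -3.37, SE 0.91) and miR-26a-5p (log2 -4.54, SE 1.48), both known for repressing the histone methyltransferase EZH2, were lower. miR-143-3p, reported to repress DNMT3A, was lower by log2 -5.75 (SE 2.26). Among miRNAs reported, like the family, to repress DNMT1, miR-185-5p (log2 1.45, SE 0.62) and miR-342-3p (log2 -0.06, SE 0.68) were not called. miR-185-5p was called higher with RLE size factors (log2 1.51) and with miR-873-3p taken out of the table under TMM (log2 1.68). Both were called higher with library sizes that leave out miR-873-3p and no further scaling (log2 3.65 and 2.64). miR-140-5p, also in the list, was not called in the main test (log2 -1.72, SE 0.85).

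Another miRNA reported to repress DNMT1, miR-126a-3p, was the 1 of the list called higher (log2 4.85, SE 0.85). It is also an endothelial marker. Both endothelial markers listed (its 2 arms) together made up 0.0840% to 0.0966% of exosome counts and 0.0100% to 0.0152% of fibroblast counts. The 5p arm, miR-126a-5p, was not called (log2 0.30, SE 0.64), and the part of both markers in the result was not tested. For miR-126a-3p, exosome libraries 1, 2 and unnumbered held 113, 91 and 98 raw counts, but only 11, 3 and 5 reads in the normalized table. On those reads the call was lost (log2 1.17, SE 0.69). The number called lower in the list was 4 without exosome library 1 and 5 without exosome library 2. It was 4, with 3 called higher, under library sizes that leave out miR-873-3p and no further scaling, but 7, with 2 called higher, with miR-873-3p taken out of the table under TMM. With library sizes that include unlisted reads 10 were called lower. Without exosome library 1, and likewise without library 2, miR-143-3p, miR-22-3p and miR-26a-5p were no longer called.

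The guides differed in which other miRNAs had the most similar profile over the 6 libraries, measured by Pearson's r of log2(TMM-scaled CPM + 1). Compared were 392 miRNAs outside the family with a mean fibroblast level of 50 TMM-scaled CPM or more. The 5 with the highest r are named for each guide. For miR-148b-3p they were let-7i-5p, miR-125a-5p, miR-22-3p, miR-199a-3p and miR-30a-5p, each with r = 0.999. For miR-152-3p they were miR-28-5p (r = 0.995), miR-24-2-5p (0.993), miR-27a-3p (0.980), miR-100-5p (0.966) and miR-322-5p (0.966). The r between the 2 guides was 0.898. The 6 points share the same libraries and fall into the exosome and the fibroblast group, so these values mainly follow the distance between the groups and the differences among the exosome libraries. miR-28-5p, for example, had 2, 0 and 2 exosome counts, and miR-152-3p 4, 0 and 2.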

How the data were processed

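Small RNA was sequenced from 3 exosome and 3 fibroblast libraries. Raw counts of reads for each mature miRNA, as deposited, were the input of the main tests. The authors also deposited normalized counts, a signal whose values become whole reads (within 0.000985) once multiplied by a factor of the library, and a comparison table with a fold ratio, its log2 value and p-values, per the file headers; its p-values were not used. A row of the normalized table that names no miRNA holds 63.1% to 84.4% of its reads; it entered only the alternative whose library sizes include unlisted reads. Per the submitters' processing notes, CASAVA 1.8.2, cutadapt 1.2.1, DESeq and build rn5 were used. Which aligner, counting rule and miRNA annotation they used is not given in the sources used here.

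The count test was that of edgeR 4.0.16 under R 4.3.3 (scaling by TMM; filterByExpr with minimum count 10 and minimum total 15, quasi-likelihood test on group, two-sided, Benjamini-Hochberg adjustment over 698 miRNAs, threshold 0.05; biological coefficient of variation 54.3%); the script was tested on simulated data. An SE is the absolute log2 fold change over the root of the F statistic. TMM factors were 1.34, 1.13 and 0.432 in exosome libraries 1, 2 and unnumbered and 0.968, 1.99 and 0.792 in fibroblast libraries 1, 2 and 4. Libraries of a group differed beyond sampling noise (chi-square over its degrees of freedom, 3.23 to 621). Shares carry 95% Clopper-Pearson intervals. Where a count was 0, the limit printed in the text is instead 3 counts over the total. It lies below the upper Clopper-Pearson bound, as at 33.3% against 33.6% for 0 of 9 reads and 15.8% against 17.6% for 0 of 19. Alternatives were DESeq2 1.42.0, other scalings and inputs, no filter, a replicate block and leaving out each library. Named miRNAs were the members, listed miRNAs with the family seed in their first 9 bases and a list of 15 chromatin-related miRNAs. Also named were the 5 most similar to each guide, miR-873-3p, miR-301a-3p and miR-126a-5p. The members and lists were chosen with earlier results of these data known. Sequences are from RefSeq (GRCr8), which held 655 of the 728 names; the counts carry no coordinates.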

Additional observations from a re-analysis of the deposited data

How the results depend on the processing

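Over the 15 alternatives miR-148b-3p and miR-152-3p stayed lower in exosomes, and the members called lower numbered 2 to 4, against 3 in the main fit. miR-148b-3p was not called without exosome library 1. miR-152-5p was called lower with no count filter, with library sizes that include unlisted reads, with the reads behind the normalized table, with the replicate block, and when either the unnumbered exosome library or fibroblast library 2 was left out. It reversed to a log2 fold change of 1.08 with library sizes without miR-873-3p and no factors, a setting chosen after seeing the data; the median of all miRNAs was 2.37 there. With that setting 36 miRNAs were called lower and 377 higher, against 130 and 79 in the main fit, and miR-148b-5p was not called. The split was 121 lower and 43 higher with total counts (median -0.57) and 195 lower and 35 higher with unlisted reads (median -0.96). Leaving out 1 library gave 86 to 139 called lower, the fewest without exosome library 1. Without a fibroblast library miR-148b-5p did not pass the count filter. The family share of exosome counts was 0.393% with miR-873-3p left out of the total, against 0.0440%, and 0.0261% to 0.0536% with 1 library left out. The cause of these changes was not tested beyond the totals given.

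With the replicate block 138 miRNAs were called lower and 96 higher, 4 members among those lower, and miR-148b-3p stood at -6.98. Libraries share only the numbers 1 and 2, and their deviations from the group means correlated at -0.10 and 0.17 across miRNAs, so the numbers are not taken to pair samples. Depth is a further limit: 6 exosome reads stand behind miR-152-3p and 0 behind miR-148b-5p.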
